A study of Homo sapiens with 15 samples.

Results

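The response of A549 cells to a gain against a loss of miR-766 was read from 3 dual-color arrays, out of 15 arrays of the same design. The 3 arrays were taken by their labels, which name miR-766 and number the replicates 1 to 3. A549 is an established line of human lung adenocarcinoma cells. On each array, RNA of cells given a synthetic precursor of miR-766 (a mimic), which raises the miRNA, carried Cy5, and RNA of cells given an antisense LNA oligonucleotide (an antagomir), which blocks it, carried Cy3. The labels give 20 nM of oligonucleotide and RNA taken 24 h after transfection. The other 12 arrays hold the same contrast for miR-629*, miR-565, miR-574-3p and miR-181d, with 3 arrays each. No array compared either treatment with untreated cells or with a control oligonucleotide, so that a ratio cannot be assigned to the gain or to the loss of the miRNA. No dye was swapped, so that dye and treatment cannot be told apart within miR-766, whereas a dye effect shared by all arrays cancels in the difference from the other miRNAs. The labels do not say that replicates were separate transfections, and p-values then measure only the spread between these arrays, which may be technical.

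A miRNA is loaded into an Argonaute protein and pairs, chiefly through the seed at its 5' end, with sites in messenger RNAs, which are then repressed in translation and often degraded. A direct target is therefore looked for among mRNAs with a lower level in the cells that received the mimic than in those that received the antagomir, which is a negative log2 ratio of Cy5 to Cy3 here. MIR766 lies on the X chromosome at chrX:119646738-119646848 of GRCh38.p14, within the span of SEPTIN6, which encodes a filament-forming GTPase. The array measures mRNAs and holds no measure of the miRNA, so that the effect of the oligonucleotides on miR-766 was not checked in these data. The labels give no arm of the hairpin. The sequence that RefSeq lists for the 5p arm is shown because its seed was searched for in the probes, and the capitals mark the seed (bases 2 to 8).
hsa-miR-766-5p: aGGAGGAAuuggugcuggucuu
The mature hsa-miR-766-3p is the other arm.

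The antagomir channel of the miR-766 arrays was well above background for 72.7% to 73.7% of the probes, and the mimic channel for 74.9% to 76.2%. On the other arrays these shares were 69.6% to 73.1% and 69.0% to 75.7%. All 16 markers of A549 and lung epithelium were among the tested genes, of which 15 were well above background, while 8 of 16 markers of blood, endothelial, stromal, muscle and liver cells, including PTPRC, PECAM1, COL3A1 and DCN, did not pass the filter on dim probes. The other 8 of these markers were tested, and 7 of them were well above background, ACTA2, CD14 and ALB among them. Precision is limited by the number of arrays. Over the 3 miR-766 arrays the log2 ratio of a probe had a median SD of 0.134, which ran from 0.389 for probes with a mean signal under 20 to 0.085 for probes over 1000. The 3 arrays lay alone on slide 4, so that slide and miRNA cannot be told apart, and this also holds for the difference from the other miRNAs.

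Across all tested probes, each of the 3 miR-766 arrays was closer to an array of another miRNA than to its own replicates. Replicate 1 correlated with the other 2 miR-766 arrays at r = 0.269 and 0.392 across the tested probes, but at r = 0.728 with replicate 1 of miR-629*. In all, 8 arrays of other miRNAs were closer to it than its best own replicate. The nearest array of another miRNA was also one of miR-629* for replicate 2 (r = 0.482) and for replicate 3 (r = 0.434), each above the best own value of 0.356 and 0.392. Over the 19025 probes with a mean signal of at least 100 in both channels, replicates 1 and 2 were still closest to an array of another miRNA (r = 0.826 and 0.677, with best own values of 0.554 and 0.531), whereas replicate 3 had r = 0.55 with its nearest other array and 0.554 with its best own replicate. These correlations run across probes, which are not independent, and the arrays share the dye orientation and the cells.

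**Figure D1:**
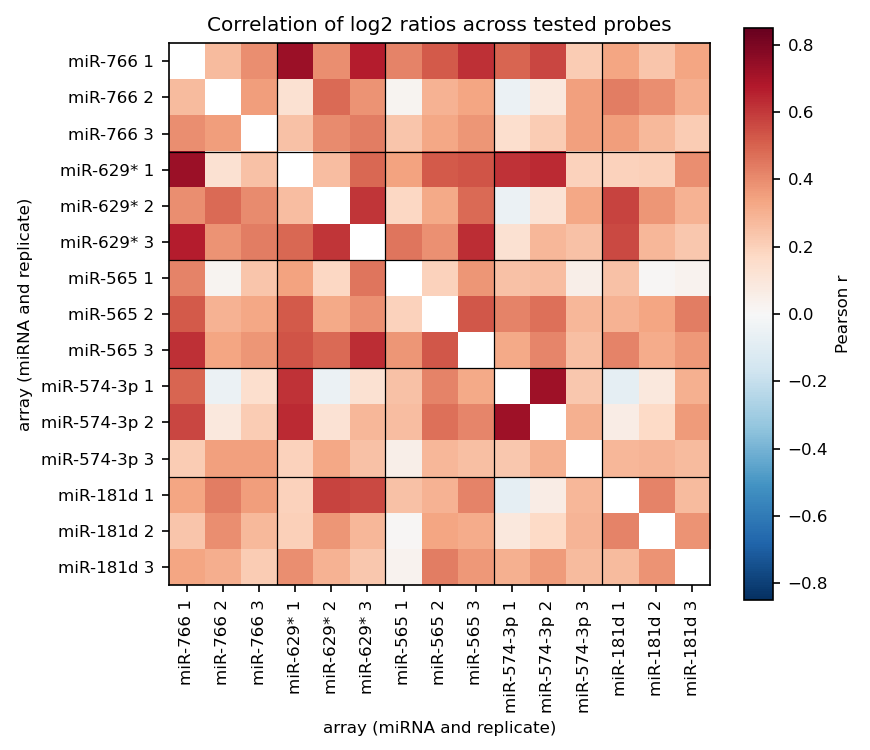
Pearson correlation of the log2 ratio (Cy5 over Cy3) across the tested probes between each pair of the 15 arrays, with both axes giving the miRNA and replicate, lines separating the miRNAs and the diagonal left blank. The darkest cell in the row of miR-766 replicate 1 is replicate 1 of miR-629* (r = 0.728), and the 3 miR-766 arrays do not form a block of their own.

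The first question was which mRNAs were lower or higher with the mimic than with the antagomir. By the thresholds of the study's methods for a suppressed mRNA, which ask for an antagomir signal of at least 20, a p that does not exceed 0.001 before adjustment and a ratio below 0.5, limma called 4 of 31349 tested probes (0.0128%). These were TAF15, HES2, TAT and the unnamed probe A_24_P221974. The mirror thresholds for an induced mRNA, a ratio over 2 with a mimic signal of at least 20, called 5 probes (0.0159%), those of MLLT1, C12orf42, DMRTC1, the transcript ENST00000354261 and the EST BM979049. The number of suppressed genes depended on the fit. It was 38 when each array's log ratio was weighted by its deposited error, a weighting of the sort used in the study, 46 with the 3 miR-766 arrays fitted alone, 9 without replicate 1 of miR-766, and 1 with normexp background correction and loess. The number of induced genes was 3 without replicate 2 and 0 with normexp and loess. With no limit on the ratio, 220 probes were lower (0.702%) and 462 higher (1.47%) at an adjusted p under 0.05 in limma, which came to 658 genes (207 lower, 454 higher, 3 of them with probes in both directions). The balance of directions also depended on the fit, with 1393 genes lower and 814 higher with the error weights, and 884 lower and 726 higher in the 3 arrays alone. With the slide as a random block in limma, 0 genes were called against 0 or by the difference from the other miRNAs (within-slide correlation 0.73). Single arrays moved the number of 658 strongly. It was 50, 106 and 240 genes without miR-766 replicate 1, 2 and 3, and 5292 genes without replicate 1 of miR-565, an array that correlated with its own replicates at 0.375 at most. That array lay on slide 1 and the other arrays of miR-565 on slide 2, so that a poor array and a slide effect cannot be told apart there. A low correlation with its own replicates was not particular to it. The highest such value was 0.305 for replicate 3 of miR-574-3p and 0.356 for replicate 2 of miR-766.

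Most of these ratios were shared with the other miRNAs. Across the tested probes, the mean ratio of miR-766 followed the mean ratio of the other 4 miRNAs (Pearson r = 0.7625, Spearman rho = 0.7297, across probes, which are not independent replicates). Of the 682 probes called, 674 had the same sign in the mean of the others (98.83%), compared with 78.25% of all tested probes. The called probes had a median absolute log2 ratio of 0.34, but their median absolute difference from the other miRNAs was 0.063. The ratio of miR-766 minus the mean ratio of the others is therefore given beside the main results. The suppressed probe A_24_P221974 had a mean ratio of -1.09 for miR-766 against -0.73 over the other miRNAs, whose arrays ran from -1.13 to -0.19. Its difference was -0.36 (limma unadjusted p = 0.103, adjusted p = 0.9997). By the difference from the other miRNAs, 1 probe was lower, that of UQCR11, and 1 higher, that of MGST3, at an adjusted p under 0.05 in limma (0.00319% each), and 768 of 31345 probes passed at an unadjusted p under 0.05 (2.45%). A difference of more than 2-fold at an unadjusted p that did not exceed 0.001 was found for TAF15, HES2 and TAT, in the suppressed direction (0.00957%), and for 0 probes in the other, and without replicate 3 of miR-766 for 1 gene in all. For 89.2% of the probes the 95% interval of the difference lay within 2-fold in both directions, with 52.8% of those under a signal of 20 and 99% of those over 1000. Set against 1 other miRNA at a time, miR-766 differed at an adjusted p under 0.05 in 0 probes from miR-181d (1214 at an unadjusted p under 0.05), in 8 from miR-629*, in 27 from miR-565 and in 76 from miR-574-3p.

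**Figure D2:**
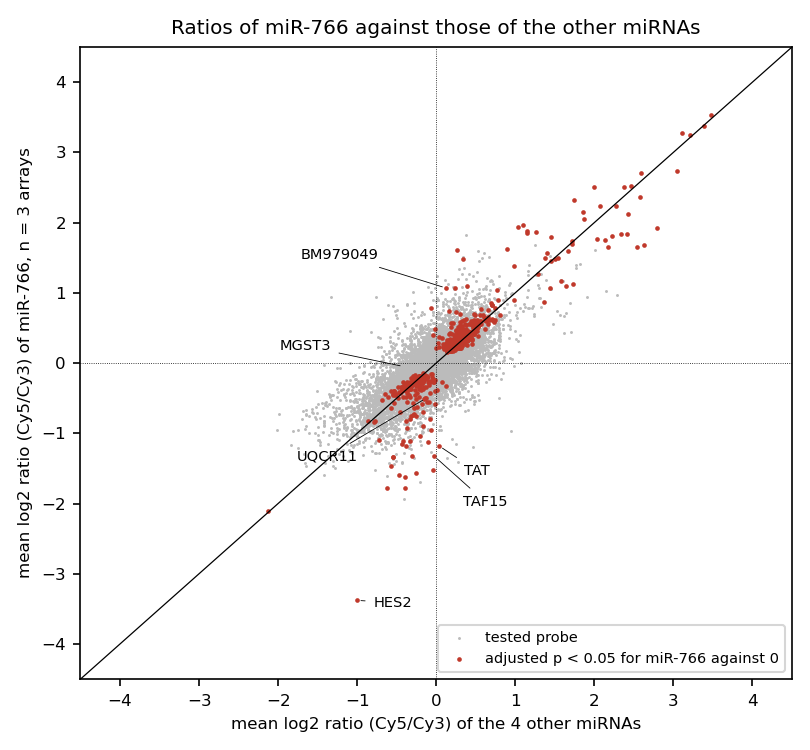
Mean log2 ratio (Cy5 over Cy3) of the 3 miR-766 arrays on the vertical axis against the mean of the 4 other miRNAs on the horizontal axis, for each tested probe, with red points at an adjusted p under 0.05 for miR-766 against 0 and a line of equal values. Most red points lie near the line, and HES2 (-3.38 against -1.005, with mimic signals not above background), TAF15 (-1.32 against -0.03) and TAT (-1.18 against 0.03) lie below it.

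TAF15 encodes an RNA-binding protein that associates with the general transcription factor TFIID. Its brightest probe (chr17:31198107-31198166, NCBI36) had log2 ratios of -1.27, -1.28 and -1.42 on miR-766 replicates 1, 2 and 3. All 3 arrays were below every array of the other miRNAs, which ran from -1.14 to 1.64. This probe and those below were picked by their values on these same arrays. The share of all tested probes that lie apart in this way was not counted, so that nothing is concluded from it here or below. The processed signal was 6965 ± 1225 with the antagomir and 2768 ± 368 with the mimic (SD, n = 3). The mean of -1.32 (standard error 0.21, limma adjusted p = 0.00839) was a 2.505-fold lower signal with the mimic. The mimic signal lay within the means of the other miRNAs (2482 to 5817), and the antagomir signal lay above theirs (2523 to 5457). After quantile normalization within the dye, the level differed from the other arrays by 1.06 in Cy3 (SD 0.64) and by -0.25 in Cy5 (SD 0.59) on the log2 scale. The log2 difference from the other miRNAs was -1.30 (standard error 0.24, limma unadjusted p = 0.000113, adjusted p = 0.294). However, a like ratio was measured for another miRNA. On the miR-629* arrays the probe was at -1.14 ± 0.0036 (SD, n = 3), and miR-766 minus miR-629* was -0.19 (standard error 0.30, limma unadjusted p = 0.545). Against miR-181d, whose arrays had a mean of 0.78, the difference was -2.10 (limma unadjusted p = 9.44e-06, adjusted p = 0.148). A second TAF15 probe, with an antagomir signal of 34.2, lay elsewhere in the gene (chr17:31162225-31162284) and had a ratio of -0.42 with a difference of -0.02 (95% interval -0.71 to 0.66), so that the 2 probes did not show the same fall. Without any 1 of the miR-766 replicates, the adjusted p of the ratio was 0.058 to 0.0939 in limma.

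No fall was called for the partners of TAF15. Of 18 tested genes of TFIID and related factors, TAF15 itself was the only one lower and 1, TAF4, was higher at an adjusted p under 0.05 for miR-766 against 0, beside 2.31% of all 23013 genes (0.747% lower and 1.56% higher). The median difference from the other miRNAs was 0.02, and 0 were called by it, beside 0.00869% of all genes. EWSR1, which encodes another RNA-binding protein, had a difference of 0.20, opposite in sign to that of TAF15 (limma unadjusted p = 0.00994, adjusted p = 0.9997).

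HES2 encodes a basic helix-loop-helix repressor of the hairy and enhancer of split family. Its probe (chr1:6398324-6398383, NCBI36) had log2 ratios of -4.23, -2.82 and -3.09. With the antagomir the signal was 23.3, 36.5 and 40.9 on the 3 arrays, well above background on each. With the mimic it was 1.24, 5.18 and 4.801, not well above background on any, and the signal was therefore at least 6.085-fold higher with the antagomir than with the mimic (limma adjusted p = 0.00213). The bound takes as the mimic level, on each array, the higher of the probe's own signal and the lowest signal of a probe well above background. The antagomir signals of the other miRNAs had means of 8.19 to 10.3, and after quantile normalization within the dye the Cy3 level of miR-766 was 1.72 above them on the log2 scale (SD over the other 12 arrays 0.18). In Cy5 it was 0.76 lower, against an SD of 0.74. The probe thus stood out in the antagomir channel, while its mimic signals had means of 4.38 to 5.505 on the other arrays. Because the mimic signal was not above background, the size of the ratios and of the difference depends on how dim signals are treated. The log2 difference from the other miRNAs was -2.37 (standard error 0.47, limma unadjusted p = 0.000205, adjusted p = 0.337). With normexp correction, which adds an offset to dim signals, the ratio was -0.62 and the difference -0.52 (limma adjusted p = 0.0139 for the difference).

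Other genes around HES2 stayed near the ratios of the other miRNAs. Of 23 genes of the Notch pathway, in which HES and HEY repressors are common targets of the receptors, 19 were tested. HES2 was the only one lower at an adjusted p under 0.05 for miR-766 against 0, and NOTCH2, a receptor, was the only one higher (log2 ratio 0.30, difference 0.05). Of all genes tested, each by its brightest probe, 0.747% were lower and 1.56% higher. HES1, the most widely studied member of the HES family, had a difference of -0.11 (95% interval -0.30 to 0.08), and the ligand JAG1 one of -0.03 (-0.12 to 0.07). The intervals of 18 of the 19 genes were within 2-fold, as were those of 88.5% of all genes.

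TAT encodes tyrosine aminotransferase, the first enzyme of tyrosine breakdown, a liver enzyme that glucocorticoids induce. Of its 3 probes, 1 passed the filter on dim probes (chr16:70158911-70158971, NCBI36), and this had log2 ratios of -0.75, -1.39 and -1.40, all below the other arrays, which ran from -0.19 to 0.81. Its signal was 20.0 ± 7.05 with the antagomir and 8.52 ± 1.37 with the mimic (SD, n = 3), near the lower end of the range. The mean ratio was -1.18 (standard error 0.18, limma adjusted p = 0.0063), and the difference from the other miRNAs -1.21 (standard error 0.20, limma unadjusted p = 4.17e-05, adjusted p = 0.187). With normexp and loess the ratio was -0.21 (limma adjusted p = 0.0532) and the difference -0.24 (limma adjusted p = 0.849). The ratio also lost its call without replicate 2 or 3 of miR-766 (limma adjusted p = 0.0712 and 0.0546), and the difference was -1.13 without replicate 1 of miR-565 (limma adjusted p = 0.00553). Both channels were lower than the same dye on the other arrays, by a log2 difference of -1.88 in Cy5 (SD 0.27) and -0.61 in Cy3 (SD 0.11). The other 7 tested genes of phenylalanine and tyrosine breakdown had no call in either contrast, nor did the other 13 tested genes of a glucocorticoid response list, such as FKBP5 and TSC22D3.

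The lower signal in both channels seen for TAT was common among the largest falls. Among probes past the adjusted threshold and of 1 sign on all 3 arrays, the 12 largest falls were, besides HES2, TAF15, TAT and A_24_P221974, those of LIN28A, MIP, MIXL1, ZC3H13, CELF3, IL26 and the transcripts CR739597 and AJ295984. LIN28A blocks the maturation of let-7 miRNAs in stem cells, MIP is the water channel of the lens, MIXL1 a homeobox factor of the early embryo, CELF3 a splicing regulator of neurons, and IL26 a cytokine. In TAT and these 8, the mean signals were 10.9 to 30.1 with the antagomir and 3.94 to 15.6 with the mimic, and both dyes were lower than on the other arrays, by -1.98 to -1.13 in Cy5 and by -0.89 to -0.26 in Cy3. Of all tested probes, 0.322% were lower by more than 2-fold in Cy5 and 0.223% in Cy3. In the signal class under 20 these shares were 1.62% and 1.16%, and in the class from 20 to 100 they were 0.204% and 0.102%. The 9 probes were picked for a low ratio of Cy5 to Cy3, and their falls in Cy3 were smaller than 2-fold. The differences of these 9 probes from the other miRNAs ran from -1.21 to -0.72, at unadjusted p-values of at most 0.0138 in limma, and 0 of the 9 passed the adjusted threshold. A slide effect and an effect of miR-766 cannot be told apart for them. In LIN28A, MIP and ZC3H13 the mimic signal was not well above background on any of the 3 arrays, and the antagomir signal was at least 1.96, 2.08 and 1.99 times higher (limma adjusted p = 0.0195, 0.00291 and 0.00324).

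**Figure D3:**
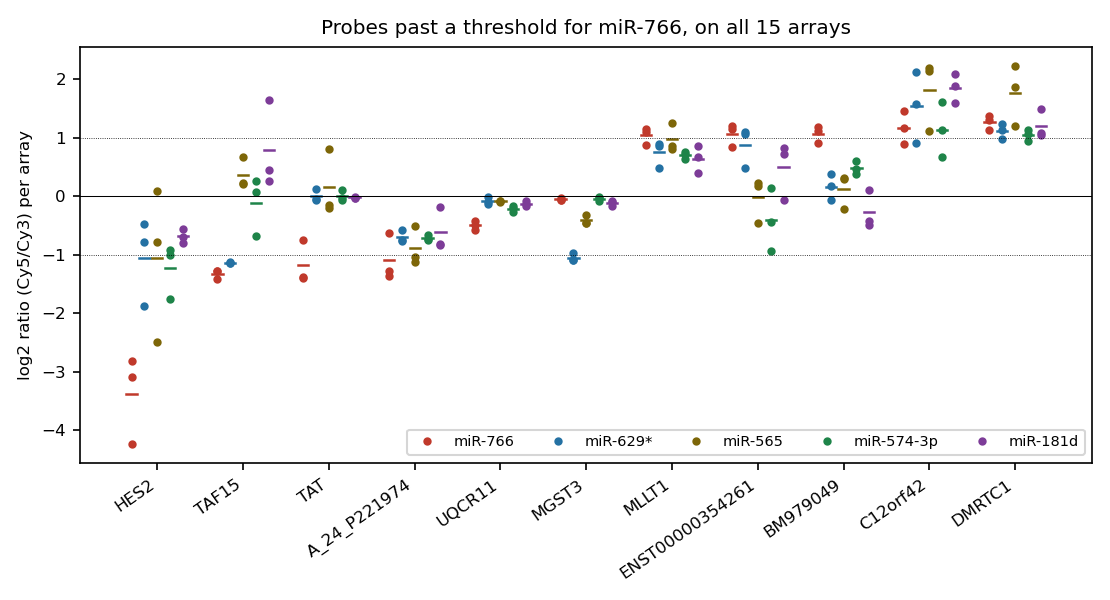
Log2 ratio (Cy5 over Cy3) of the 11 probes past a threshold for miR-766 on each of the 15 arrays, with a point for each array, a bar for the mean of the 3 arrays of a miRNA, a color for each miRNA and dotted lines at 2-fold. For HES2, TAT, UQCR11 and BM979049 the 3 miR-766 arrays lie apart from the other 12, TAF15 lies next to miR-629*, and MLLT1, C12orf42 and DMRTC1 are near or over 2-fold for other miRNAs too. The probes were picked by their values on these arrays, and the share of all tested probes that lie apart was not counted.

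Among the 5 induced probes, BM979049 differed most clearly from the other miRNAs. It is an expressed sequence tag on chromosome 15 (chr15:50629495-50629554, NCBI36), to which no gene name was matched. Its log2 ratios were 1.11, 0.91 and 1.18, all above the other arrays, which ran from -0.49 to 0.60. The signal was 354 ± 65.7 with the antagomir and 739 ± 116 with the mimic (SD, n = 3). The difference from the other miRNAs was 0.94 (standard error 0.14, limma unadjusted p = 1.62e-05, adjusted p = 0.114), and without replicate 1 of miR-565 it was 0.90 (limma adjusted p = 0.00792). The Cy5 level was 1.06 above that of the other arrays (SD 0.22) and the Cy3 level 0.10 above (SD 0.29), so that this probe stood out in the mimic channel. ENST00000354261 had a difference of 0.83 (limma unadjusted p = 0.00485, adjusted p = 0.9997), and a second probe of it one of 0.45. On the miR-629* arrays its mean ratio was 0.88, close to the 1.06 of miR-766.

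The other 3 induced genes had high ratios for the other miRNAs too. MLLT1, which encodes the chromatin reader ENL, had a mean ratio of 1.04 and a mean of 0.76 over the other miRNAs. Its other 2 probes, at ratios of 0.01 and -0.09, were near 0. DMRTC1, a gene of the DMRT family, had 1.27 against 1.28. A second tested probe of DMRTC1 had a ratio of 0.36 (limma adjusted p = 0.506), with -0.21 on replicate 3. C12orf42 had 1.17 against 1.58, but its antagomir signal was well above background on 1 of the 3 arrays, and with normexp and loess its ratio was 0.12 (limma adjusted p = 0.194). Of the 12 largest rises by the ratio alone, all had antagomir signals that were not well above background on any array, so that the size and the order of their ratios, and their differences from the other miRNAs, cannot be read. They included the receptor genes OPRK1 and OR2W3, the palmitoyltransferase gene ZDHHC15, RNF175, GK, which encodes glycerol kinase, PIK3AP1 and TPD52L3, beside the transcripts THC2540497, THC2641682, AF334588, LOC644776 and LOC649179. Their antagomir signals were 1.49 to 3.69, and the mimic signals were at least 1.10 to 2.75 times higher (limma adjusted p = 0.000108 to 0.0202).

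**Figure D4:**
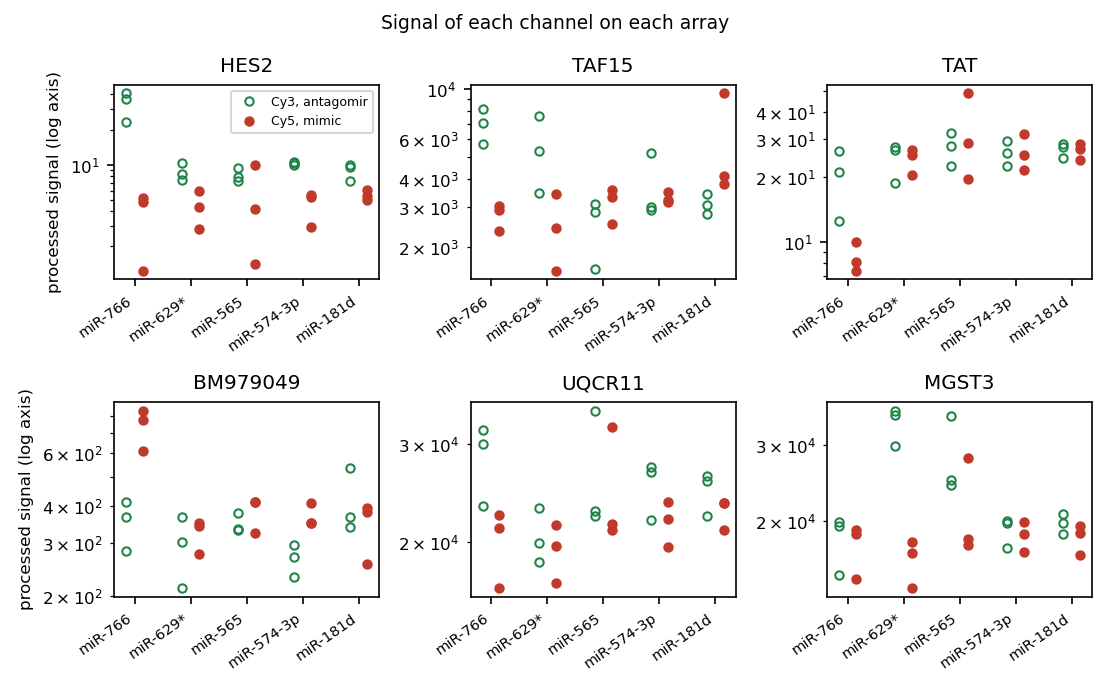
Processed signal on a log axis for 6 genes on all 15 arrays by miRNA, with open green points for Cy3 (antagomir) and filled red points for Cy5 (mimic), each from 1 array. The 3 miR-766 arrays stand apart in Cy3 for HES2 (23.3 to 40.9), in Cy5 for TAT (means of 8.52 against 24.2 to 32.4) and in Cy5 for BM979049.

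UQCR11 and MGST3 were the genes whose difference from the other miRNAs passed the adjusted threshold. UQCR11 encodes a small subunit of complex III of the respiratory chain. Its probe (chr19:1549094-1549153, NCBI36) had log2 ratios of -0.49, -0.43 and -0.59, all below the other 12 arrays, which ran from -0.28 to -0.02. The signal was 28350 ± 4524 with the antagomir and 20020 ± 3069 with the mimic (SD, n = 3). The mean ratio of -0.50 (standard error 0.040, limma adjusted p = 0.000151) was a 1.42-fold lower signal with the mimic, and the difference from the others was -0.37 (standard error 0.044, limma adjusted p = 0.0334). UQCR11 was lower for miR-766 than for each other miRNA on its own, by log2 differences of -0.42 to -0.28, and the adjusted p of limma was 0.0146 against miR-565, 0.0231 against miR-629*, 0.0688 against miR-574-3p and 0.149 against miR-181d. A second, dimmer probe had a ratio of -0.09 and a difference of -0.26 (95% interval -0.46 to -0.06, limma unadjusted p = 0.0134). The Cy3 level of the bright probe was 0.32 above that of the other arrays (SD 0.08), and the Cy5 level 0.08 below (SD 0.06). Without miR-766 replicate 1, 2 or 3, the difference was -0.38, -0.41 or -0.33, with a limma adjusted p of 0.241, 0.0916 or 0.351, and it was -0.36 without the miR-629* arrays (limma adjusted p = 0.455).

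MGST3 encodes a microsomal glutathione S-transferase. Its log2 ratios on the miR-766 arrays were near 0, at -0.03, -0.06 and -0.06 (limma adjusted p = 0.578 for the mean). The difference of 0.35 from the other miRNAs (standard error 0.044, limma adjusted p = 0.0334) came from low ratios elsewhere, of -1.05 ± 0.067 with miR-629* and -0.42 ± 0.082 with miR-565 (SD, n = 3). The ratios of miR-181d and miR-574-3p were -0.11 and -0.04, and without the miR-629* arrays the difference was 0.14 (limma adjusted p = 1). Without miR-766 replicate 1, 2 or 3 its adjusted p was 0.295, 0.247 or 0.351 in limma. The antagomir signal was 33590 ± 3387 on the miR-629* arrays and 18110 ± 2705 on those of miR-766 (SD, n = 3), while the mimic signals were 16250 ± 2020 and 17460 ± 2437.

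Further differences were called with replicate 1 of miR-565 left out, which lay on slide 1 while the other arrays of miR-565 lay on slide 2. Leaving it out takes a replicate on another slide from the spread, and whether the calls depend on this was not tested. Without this array, 27 probes were lower (0.0861%) and 14 higher (0.0447%) for miR-766 than for the others at an adjusted p under 0.05 in limma, 39 genes and 41 probes in all (0.131%), UQCR11 and MGST3 among them. The genes given next were picked from these after their values were seen. SNRPF, a core protein of the spliceosomal snRNPs, was lower with 2 probes, by -0.52 and -0.49 (limma adjusted p = 0.00102 for each), and its bright probe had ratios of -0.49, -0.47 and -0.72 against -0.24 to 0.09 on the other 11 arrays. UQCRH, a further subunit of complex III, was lower by -0.34 (limma adjusted p = 0.0216). LAMTOR5, a subunit of the Ragulator complex at lysosomes, was lower by -0.43, GAS5, a non-coding host of snoRNAs, by -0.57, and CKS1B, a partner of cyclin-dependent kinases, by -0.31 and -0.21 with its 2 probes. Among the higher genes were POLD2, a subunit of DNA polymerase delta, by 0.41, TLN1, which encodes talin, by 0.33, and SULT2B1, a sulfotransferase of cholesterol, by 0.92 (limma adjusted p = 0.00217). The differences were small, with a median size of 0.37 and 1 probe, that of TAT, over 2-fold. With all arrays, 2 of the 41 probes were called, and those of GAS5, CKS1B, UQCRH, POLD2 and TLN1 had a limma adjusted p of 0.9997. The ratios of GAS5 and of the CKS1B probe with the larger difference overlapped those of the other 11 arrays. In 33 of the 41 the Cy3 level had moved further from the other arrays than the Cy5 level, as for SNRPF (0.50 in Cy3, 0.01 in Cy5) and POLD2 (-0.37 and 0.01).

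Genes that had been named as targets of miR-766 in other work were then examined. Of 7 such genes, 5 were tested, and CYP11B2 and SOX6 did not pass the filter on dim probes. None of the 5 was lower at an adjusted p under 0.05 in limma (0 of 5 at an unadjusted p under 0.05 for the difference), and the 95% interval of the difference lay within 2-fold for all 5. DNMT3B, a DNA methyltransferase, had a ratio of -0.11 and a difference of -0.01 (95% interval -0.15 to 0.14). MDM4, an inhibitor of p53, had a difference of 0.09 (-0.18 to 0.36), and SIRT6, a deacetylase of chromatin, one of -0.09 (-0.38 to 0.19). WNT3A, a secreted Wnt ligand, was dim, with a difference of -0.12 (-0.91 to 0.67). NR3C2, the mineralocorticoid receptor, was higher with the mimic at log2 ratios of 0.54, 0.47 and 0.66 (mean 0.55, limma adjusted p = 0.0321), although its difference from the other miRNAs was 0.19 (-0.10 to 0.47). SEPTIN6, in whose span the miRNA lies, had a ratio of -0.04 and a difference of 0.04 (-0.19 to 0.28).

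In the p53 pathway, all 25 genes were tested and 0 were called by the difference at an adjusted p under 0.05, but 5 were lower at an unadjusted p under 0.05 in limma (20%), beside 1.60% of all genes. None was higher at that p, beside 0.939%. The 5 were BAX, which opens the outer mitochondrial membrane in apoptosis, the secreted factor GDF15, the kinase PLK3, the stress protein SESN1 and the oxidoreductase TP53I3. BAX had ratios of -0.97, -0.02 and -0.97, so that replicate 2 did not share its fall, and a difference of -0.48 (95% interval -0.90 to -0.06). TP53I3, at ratios of -0.14, -0.19 and -0.11, had a difference of -0.15 (-0.24 to -0.06). PLK3 was also lower against 0 (ratio -0.35, limma adjusted p = 0.0238). The most used readouts of p53 stayed near the other miRNAs, with differences of -0.16 (-0.37 to 0.05) for CDKN1A and 0.10 (-0.21 to 0.40) for MDM2. The intervals of all 25 genes were within 2-fold. The median difference of the list was -0.07, beside -0.0009 over all genes.

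The other lists held no call by the difference either, which was called for 0.00869% of all genes. Of all genes, 2.31% were called against 0, and 1.60% were lower and 0.939% higher by the difference at an unadjusted p under 0.05. Among 18 genes of G1/S and replication, MCM7 was lower (ratio -0.25) and TYMS higher (0.31) at an adjusted p under 0.05 against 0, with differences of 0.04 and 0.02. Of 19 genes of mitosis, CCNB1 was higher against 0 (ratio 0.15, difference 0.02), and the median difference of the list was 0.10. Of 20 tested genes of the interferon and double-stranded RNA response, 0 were called, with a median difference of -0.01, and IFIT2 and IRF7 were lower at an unadjusted p under 0.05 in limma, by -0.30 and -0.20. The 13 genes of miRNA processing, with DROSHA, DICER1 and the Argonaute genes, had differences of -0.09 to 0.20, all with intervals within 2-fold. The 12 tested septins had differences of -0.14 to 0.32, and in both lists 0 genes passed at an unadjusted p under 0.05 in limma. The 25 tested Wnt genes and the 13 of DNA methylation and sirtuins had medians of -0.01 each, with GSK3B, a kinase of beta-catenin, at 0.14 and SIRT4 at -0.30 (limma unadjusted p = 0.0311 and 0.0385). Of the A549 and lung epithelial markers, KRT7 and KRT8 were lower against 0 (ratios -0.34 and -0.32), and their differences of 0.14 and 0.03 had the opposite sign.

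**Figure D5:**
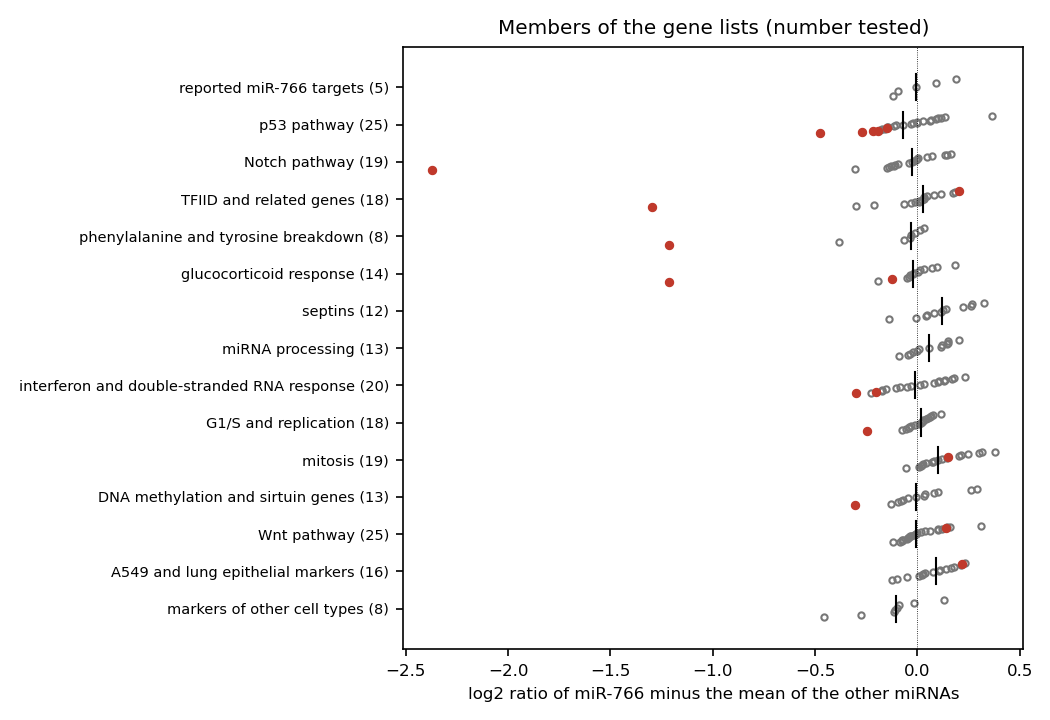
Log2 ratio of miR-766 minus the mean of the other miRNAs on the horizontal axis for each tested member of 15 gene lists, with filled red points at an unadjusted p under 0.05, a vertical bar at the median of a list and the number tested in brackets. HES2 (-2.37), TAF15 (-1.30) and TAT (-1.21, in 2 lists) lie apart, and 5 members of the p53 pathway are red.

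Only the seed of the 5p arm was searched for. Because the labels give no arm, the values below cannot speak for sites of the 3p arm. Probes with the complement of the 5p seed shown at the start, the letters TTCCTCC, were looked at on the strand as the file prints the probes. They were 216 of the tested probes (0.689%). Their median log2 ratio was -0.01 and their median difference from the other miRNAs -0.01, beside 0.01 and 0.00 over all tested probes. At an adjusted p under 0.05 against 0, 3 of the 216 were lower (1.39%) and 2 higher (0.926%), beside 0.702% and 1.47% of all probes. None of the 11 probes past a threshold for miR-766, 0 of 11, held these letters. Since 0.689% of all tested probes hold them, a count of 0 was likely for any 11 probes, and nothing is concluded from it. A probe covers a short piece of a transcript, and whole transcripts were not searched for sites of the miRNA.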

How the data were processed

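The authors hybridized 15 whole human genome oligonucleotide arrays, and deposited scanner files made with Feature Extraction 9.5.3.1. The intensity values of the authors used here are the processed signals, from which the software had removed the background and the dye bias, and, for an alternative, the raw mean and background signals. The authors' tables also give a log10 ratio, its error as a score of the error model and flags per spot, and their series table equals this log10 ratio. The Resolver step of the methods was not used here.

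Control spots (1639 per array) and 411 outlier-flagged spots of the miR-766 arrays were left out, spots were averaged to 41000 probes, and log2(Cy5/Cy3) was computed in R 4.3.3. All 15 arrays entered a fit in limma 3.58.1 (lmFit, then eBayes with a trend on intensity) with a coefficient for each miRNA and contrasts of miR-766 against 0 and against the mean of the other 4. Benjamini-Hochberg adjustment covered the 31349 probes whose Cy3 or Cy5 signal was well above background on 3 or more arrays. All p-values are two-sided, and the brightest probe stands for a gene in the lists. Single channels were quantile normalized within each dye and given without a test. Contrasts with single miRNAs were added after seeing the data.

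Groups came from the labels. Named genes are those past the thresholds, the 12 largest falls and 12 largest rises at an adjusted p under 0.05 with 1 sign on all arrays, those that differ from the other miRNAs at an adjusted p under 0.05, and examples from 15 gene lists. A member of these lists is not reported here. The miRNA, the lists and the tests were chosen with earlier results of these data known. Current symbols were matched through RefSeq (GRCh38.p14) for 27783 of 41000 probes, and probe positions are those of the files (NCBI36), without annotation of exons or UTRs. On simulated log ratios of 31349 probes, the contrast with the other miRNAs recovered 98 of 100 changes of a log2 size of 2 and 68 of 100 of a size of 1, with 8 false calls. The simulated noise was independent between arrays, with no slide effect and no differences between the other miRNAs. These counts therefore do not carry over to the real arrays, whose within-slide correlation was estimated at 0.73. That fit had a coefficient for each miRNA, and only miR-565 and miR-574-3p had arrays on more than 1 slide. The estimate thus depends on these miRNAs for the difference between slides. The alternatives were the series table, median centering, normexp (offset 50) followed by loess, weighting by the deposited error, 3 arrays only, no trend, a block for the replicate number or the slide, other filters, a signal minimum of 100, adjusted p in the thresholds, averaging a gene's probes, flagged spots kept, and single arrays left out. Fits without the arrays of miR-629* or miR-565 were chosen after seeing the data.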

Additional observations from a re-analysis of the deposited data

Results flagged for a closer look

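The probe of UQCR11 differed between miR-766 and the mean of the other miRNAs by -0.37 on the log2 scale, by the test of the difference itself (limma adjusted p = 0.0334), and the 3 miR-766 arrays were lower than all 12 others. The probe was picked by its values on these arrays, and the share of all tested probes that lie apart was not counted. The probe of MGST3 differed by 0.35 (limma adjusted p = 0.0334), with miR-766 near 0 and miR-629* at -1.05. Both calls depended on the setting. The difference passed the adjusted threshold in 6 of 17 other settings for UQCR11 and in 8 of 17 for MGST3. With the error-weighted mean, neither was called (z-test adjusted p = 0.357 for UQCR11 and 0.424 for MGST3). Groups of 3 arrays were not examined for single outlying values.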

How the results depend on the processing

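The ratios of the 11 probes past a threshold kept their sign in all 196 repeats under other settings, of which 32 lost the adjusted threshold. Many of the settings alter only the spread, the filter or the other arrays, and there the ratios of these probes could not change sign. Their differences from the other miRNAs kept the sign in 180 of 185, the exceptions being DMRTC1, near 0, at 0.044 with averaged probes, 0.023 with normexp and loess, 0.042 without miR-565 replicate 1, 0.054 without miR-766 replicate 2 (the lowest of the fits without 1 replicate being -0.064, without replicate 3) and 0.15 without the miR-565 arrays, and it was -0.072 without the miR-629* arrays. The slide as a random block (within-slide correlation 0.73) left 0 genes in every count, as miR-766 has a slide of its own.

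Of genes at an adjusted p under 0.05 for miR-766 against 0 there were 658 (207 lower, 454 higher, 3 with probes in both). The error-weighted mean gave 2199 (1393 lower, 814 higher), the 3 arrays alone 1598 (884 and 726), averaged probes 330 (123 and 207), no intensity trend 438 (113 lower) and the replicate block 437 (133 lower). Median centering gave 382 lower and 484 higher, and normexp and loess 442 lower and 539 higher. Without 1 replicate of miR-766 there were 50 to 240 (22 to 73 lower, 28 to 169 higher), without miR-565 replicate 1 there were 5292 (2129 and 3240), without the miR-565 arrays 4601 (1826 and 2830), and without the miR-629* arrays 228 (72 and 157).

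Of suppressed genes, 4 in the text, there were 38 with the error-weighted mean, 46 with the 3 arrays alone, 1 with normexp and loess, 1 with a signal minimum of 100, and 4 to 9 without a replicate. Of induced genes, 5 in the text, there were 2 with averaged probes, 0 with normexp and loess, 1 with a signal minimum of 100, and 3 to 6 without a replicate. By the difference from the other miRNAs, 2 genes passed the adjusted threshold in the text, 172 with the error-weighted mean, 1 with averaged probes, 1 with median centering, 0 with no filter on dim probes, 0 with no trend, 0 with the replicate block, 0 without any replicate of miR-766, 39 without miR-565 replicate 1, 32 without the miR-565 arrays and 0 without the miR-629* arrays. Of 3 genes past 2-fold by the difference there were 12 with the error-weighted mean, 1 with normexp and loess, 1 with a signal minimum of 100, 0 with adjusted p-values, and 1 to 4 without a replicate. The cause of these changes was not tested. Pairing by replicate number was not taken as shown, since 13 of 30 same-number pairs had deviations correlated over 0.1 (range -0.395 to 0.511). The nearest array of another miRNA nevertheless carried the same number for each miR-766 array across all tested probes, a hint from the data and not from the design. The replicate block ended the call of the difference for UQCR11 and MGST3 (limma adjusted p = 0.081 and 0.0957) and that of the ratio for C12orf42 (0.0619).

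Probes with a signal under 20 had a median standard error of the difference of 0.335 against 0.081 over 1000.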
